A study of Mus musculus with 6 samples.

Results

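The genes described here are the Hedgehog co-receptors Cdon, Boc and Gas1, the receptor gene Ptch1, the transducer gene Smo, the transcription factor genes Gli1, Gli2 and Gli3, and the decoy receptor gene Hhip. They were taken by symbol, and all 9 were found among the 49523 gene symbols of the count table. RNA sequencing was done on EO771, a mouse mammary carcinoma line, in 2 groups of 3 libraries that the labels name CSCs (cancer stem cells, CSC below) and non-CSCs (non-CSC below). No genotype, treatment or time is given for either group, and the sources used here do not say how the stem cells were obtained or whether replicates were separate cultures. The p-values therefore measure the spread between these libraries, which may be technical. The design asks which genes differ in expression between CSC and non-CSC.

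In the absence of a Hedgehog ligand, the PTCH1 protein keeps SMO inactive. A ligand bound to PTCH1 together with a co-receptor (CDON, BOC or GAS1) releases SMO, which acts in the primary cilium to turn GLI2 and GLI3 from repressor into activator forms. GLI1, PTCH1 and HHIP are themselves transcribed in response, so their mRNAs are widely used as readouts of the pathway, and PTCH1 and HHIP feed back to restrain it. In the mammary gland the pathway is known for its part in the exchange between epithelium and stroma and has been studied in breast cancer stem cells.

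Total counts were 32204112 to 35971131 per library in non-CSC and 27099879 to 28205651 in CSC. Levels are given as CPM, the gene's count relative to the TMM-scaled library size, with the mean and SD of 3 libraries. Of 17630 genes tested across the transcriptome, 66.5% passed edgeR's quasi-likelihood test with a Benjamini-Hochberg adjusted p below 0.05 and are named called here, so a call alone says little about a gene. Of the keratin genes that mark the tumour line, Krt8, Krt18, Krt7 and Krt19 had means of 501 to 1267 CPM in both groups. Of these, Krt7 rose from 501 to 1057 CPM. The basal keratin Krt14 was at 224 CPM in non-CSC and 259 CPM in CSC. Another basal keratin, Krt5, was far lower, at 3.64 and 1.01 CPM. The epithelial adhesion genes Epcam, at 21.3 and 10.3 CPM, and Cdh1, at 0.952 and 0.752 CPM, were also far lower. Vim, Cd44 and Esr1, also listed for the line, were at 1271, 689 and 33.5 CPM in non-CSC and 867, 774 and 37.3 CPM in CSC. Of 10 fibroblast markers, Lum, Dpt and Thy1 were at 0 in all libraries, while the summed level rose from 555 to 589 CPM in non-CSC to 1196 to 1243 CPM in CSC, nearly all of it Dcn. Of 8 leukocyte markers Cd3e and Adgre1 were at 0, and the sum was 27.4 to 29.4 CPM in non-CSC and 35.6 to 36.7 CPM in CSC. Within it Cd68 went from 25.4 to 17.8 CPM, Itgam from 0.741 to 10.2 CPM and Csf1r from 1.85 to 8.06 CPM, so its members went opposite ways. Of 6 endothelial markers Tek and Emcn were at 0, and the sum was 1.38 to 1.75 CPM in non-CSC and 5.83 to 6.03 CPM in CSC, with Vwf going from 0.899 to 5.46 CPM and Pecam1 from 0.586 to 0.331 CPM. The 5 adipocyte markers, with Plin1 and Lep at 0, summed to 0.144 to 0.170 CPM in non-CSC and 0.290 to 0.345 CPM in CSC. The part of these other markers in the results was not tested. In such bulk libraries, fewer cells that express a gene and less RNA of it per cell cannot be told apart.

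The co-receptor genes moved in opposite directions, Cdon upward and Boc downward, and Gas1 was not detected. Cdon and Boc encode related transmembrane proteins of the immunoglobulin superfamily with fibronectin type III repeats, and GAS1 is an unrelated protein held to the membrane by a lipid anchor. Start-site windows are shown for Cdon, Smo and Ptch1, the called members with a window in the RefSeq promoter table of GRCm38.p6, because their CpG content differs widely. The table matched 7 of the 9 members, all but Boc and Gli1. Each window runs from 250 bases before to 50 bases after an annotated start, 5′ to 3′ on the gene's strand, with CpG dinucleotides in capitals.
Cdon (chr9:35451826-35452125, plus strand): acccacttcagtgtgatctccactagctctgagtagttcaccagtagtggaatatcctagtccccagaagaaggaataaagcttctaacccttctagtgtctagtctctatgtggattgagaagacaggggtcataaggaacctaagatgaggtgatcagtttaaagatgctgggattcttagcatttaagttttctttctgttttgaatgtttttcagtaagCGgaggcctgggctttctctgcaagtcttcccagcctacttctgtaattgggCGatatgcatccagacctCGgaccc
Smo (chr6:29735247-29735546, plus strand): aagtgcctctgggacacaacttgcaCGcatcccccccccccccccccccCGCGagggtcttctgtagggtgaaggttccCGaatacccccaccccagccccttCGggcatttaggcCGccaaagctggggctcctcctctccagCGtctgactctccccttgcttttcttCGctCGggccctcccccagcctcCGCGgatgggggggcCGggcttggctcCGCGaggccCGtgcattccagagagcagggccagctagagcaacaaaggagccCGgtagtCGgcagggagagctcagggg
Ptch1 (chr13:63565686-63565985, minus strand): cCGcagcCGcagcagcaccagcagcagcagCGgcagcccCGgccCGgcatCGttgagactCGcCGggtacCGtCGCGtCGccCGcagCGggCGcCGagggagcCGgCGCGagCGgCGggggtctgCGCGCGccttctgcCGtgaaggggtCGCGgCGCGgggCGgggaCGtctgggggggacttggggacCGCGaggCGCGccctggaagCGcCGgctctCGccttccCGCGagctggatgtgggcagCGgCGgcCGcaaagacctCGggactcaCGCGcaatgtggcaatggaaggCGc
The Cdon window holds 3 CpGs in 300 bases, the Smo window 17 and the Ptch1 window 47, where the median over 32851 windows is 7. The Cdon start shown lies 30548 bases inside the gene's annotated RefSeq start, so it is 1 of several, and the counts per gene do not say which start was used. The Ptch1 start lies 7725 bases inside its gene. The GLI-binding sequence GACCACCCA, or its complement TGGGTGGTC, was found in none of the 7 members' windows and in 0.253% of all windows, which says only that these letters are not in these windows.

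Cdon (ENSMUSG00000038119.15, protein-coding, GRCm38 chromosome 9, 35421128 to 35507652) had counts of 701, 744 and 684 in non-CSC against 3920, 3874 and 4168 in CSC. In CPM these were 22.3, 21.4 and 19.4 against 142, 137 and 144. The CSC libraries lay far above the non-CSC libraries, and the spread within a group was small. The means were 21.0 ± 1.53 and 141 ± 3.56 CPM (SD, n = 3 each), so that CSC was 6.70-fold higher. On the log2 scale this was 2.75, SE 0.049 (edgeR adjusted p = 1.54e-22), which placed Cdon at rank 251 by rise among the 17630 genes tested. None of its exon bases is shared with another annotated gene. CDON binds Hedgehog ligands and also cadherins, and is known for promoting muscle differentiation.

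Boc (ENSMUSG00000022687.12, protein-coding, GRCm38 chromosome 16, 44485049 to 44558897) was low everywhere. Its counts were 19, 28 and 29 in non-CSC against 2, 1 and 1 in CSC, or 0.606, 0.807 and 0.821 CPM against 0.0726, 0.0353 and 0.0345 CPM. The groups did not overlap, and every non-CSC library had at least 19 counts. From the summed counts of 76 and 4, the level was 15.9-fold higher in non-CSC, with a 95% interval of 5.96 to 59.8 that covers counting error only. The fitted log2 fold change was -3.88, SE 0.45. Boc passed the low-count filter only through its non-CSC libraries, the group where it was high, so no p is given.

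Gas1 (ENSMUSG00000052957.8, GRCm38 chromosome 13, 60174405 to 60177365) had 0 counts in all 6 libraries. That allows up to 0.0296 CPM over the 3 non-CSC libraries and 0.0354 CPM over the 3 CSC libraries, taking 3 counts as the limit, for counting error only. This limit holds only if reads of Gas1 were counted: whether the counting or its annotation left the gene out cannot be told from the table, here and for the other genes given below with 0 counts in all libraries. Of its exon bases 19.9% are shared with a gene on the other strand, and the sources used here do not give the strand setting of the counting. GAS1 was named for its expression in growth-arrested fibroblasts.

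Compared per kilobase of exon, which allows levels of different genes to be set side by side, Cdon made up nearly all of the co-receptor signal in both groups. Its share of the summed per-length level of Cdon, Boc and Gas1 was 95.5%, 93.9% and 93.2% in non-CSC against 99.91%, 99.96% and 99.96% in CSC. The share of Boc was 5.82% ± 1.21 in non-CSC and 0.0582% ± 0.0262 in CSC (SD, n = 3 each). These shares follow from the 2 changes above and are a description, not a further test.

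**Figure D1:**
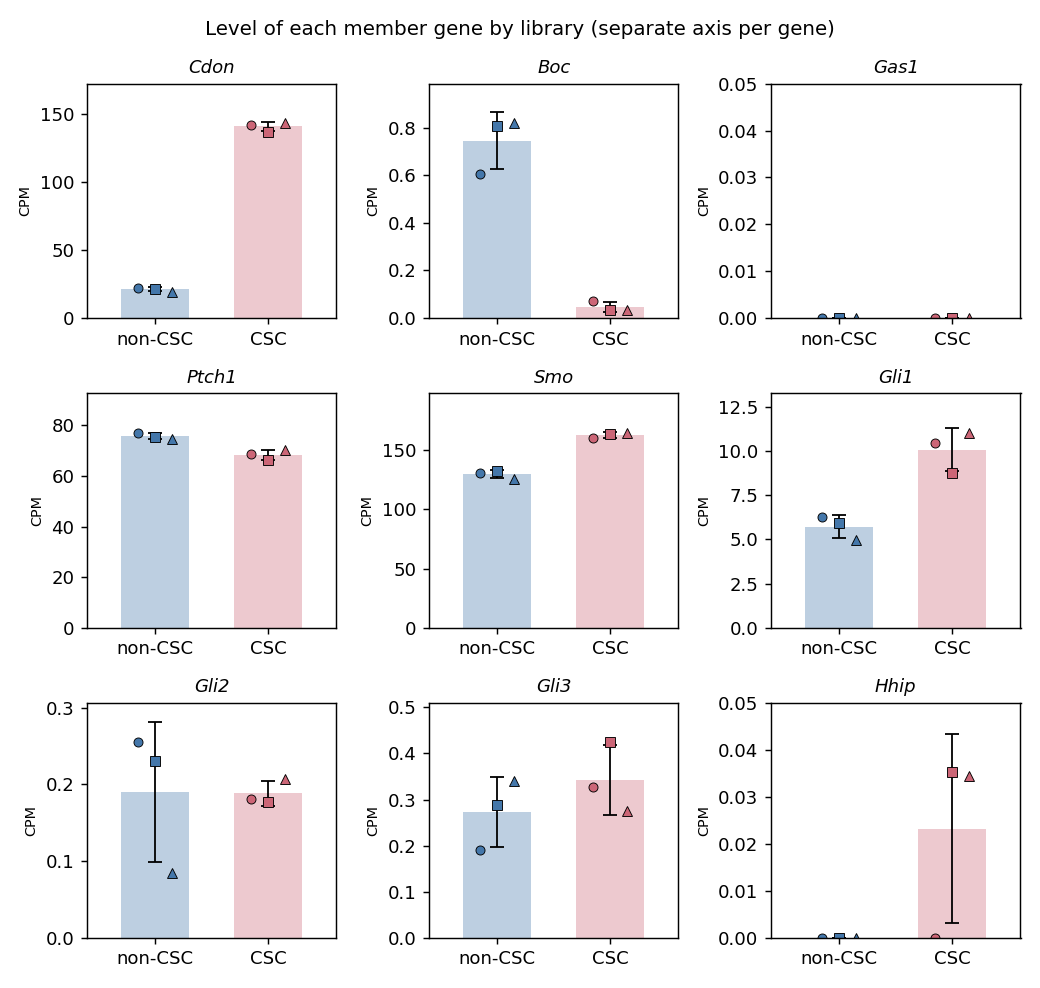
Level of each of the 9 member genes in CPM, with a separate linear axis for each gene; points are the 3 libraries of a group (circle, square and triangle for replicates 1, 2 and 3), bars are group means and whiskers the SD. Cdon stands at 137 to 144 CPM in CSC against 19.4 to 22.3 CPM in non-CSC, Boc is near 0 in CSC, Gas1 is at 0 throughout, and the axes of Boc, Gli2, Gli3 and Hhip end below 1 CPM.

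Ptch1 and Smo, the receptor and the transducer it restrains, were both well expressed and differed little between the groups. Ptch1 (ENSMUSG00000021466.12, GRCm38 chromosome 13, 63508328 to 63573598) had 2422, 2622 and 2638 counts in non-CSC and 1894, 1878 and 2039 in CSC. These correspond to 77.2, 75.6 and 74.6 CPM against 68.7, 66.4 and 70.3 CPM. The groups did not overlap, but the means of 75.8 ± 1.29 and 68.5 ± 1.97 CPM (SD, n = 3 each) were only 1.11-fold apart. The fitted log2 fold change was -0.15, SE 0.041 (edgeR adjusted p = 0.00296). The call depended on the scaling: with upper-quartile scaling the log2 fold change was -0.09 (adjusted p = 0.0627) and with plain library sizes -0.08 (adjusted p = 0.0901).

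Smo (ENSMUSG00000001761.7, GRCm38 chromosome 6, 29735503 to 29761365) encodes a membrane protein of the G protein-coupled receptor class. It was at 130.4, 132.4 and 126.0 CPM in the non-CSC libraries, from 4090, 4592 and 4454 counts. In the CSC libraries it was at 160.4, 163.6 and 164.8 CPM, from 4418, 4628 and 4782 counts. All CSC libraries lay above all non-CSC libraries. The means of 129.6 ± 3.25 and 163 ± 2.31 CPM (SD, n = 3 each) gave a log2 fold change of 0.33, SE 0.036 (edgeR adjusted p = 2.60e-08). This is a small change, close to the median absolute log2 fold change of 0.33 over all genes tested. The ratio of Smo to Ptch1 counts within a library does not depend on scaling. It was 1.69, 1.75 and 1.69 in non-CSC and 2.33, 2.46 and 2.35 in CSC. The mean ratio was 1.39-fold higher in CSC. Smo was higher and Ptch1 lower in every CSC library, so the separation of this ratio follows from the levels above and is no further test.

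The Gli genes encode the zinc finger transcription factors on which the pathway ends. Gli1 was the Gli gene with a measurable level, and it was higher in CSC. Gli1 (ENSMUSG00000025407.7, GRCm38 chromosome 10, 127329882 to 127341974) encodes an activator. Its counts were 197, 205 and 176 in non-CSC and 288, 247 and 320 in CSC. The levels were 6.28, 5.91 and 4.98 CPM against 10.5, 8.73 and 11.03 CPM, without overlap between the groups. The means were 5.72 ± 0.669 and 10.1 ± 1.20 CPM (SD, n = 3 each), so that CSC was 1.76-fold higher, with a log2 fold change of 0.82, SE 0.099 (edgeR adjusted p = 2.42e-07). Of its exon bases 6.55% are shared with genes on the other strand, among them Arhgap9. Arhgap9 itself rose from 20.2 to 25.8 CPM, a log2 fold change of 0.35 (edgeR adjusted p = 4.27e-06). Reads from bases that both genes cover cannot be told apart without the strand, and the part of Arhgap9 in the Gli1 level was not tested.

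Gli2 and Gli3 were close to the limit of detection. Gli2, the main activator of the family in development, had 8, 8 and 3 counts in non-CSC and 5, 5 and 6 in CSC. The groups overlapped, and Gli2 did not pass the low-count filter. The ratio of its summed counts, CSC over non-CSC, was 1.01 with a 95% interval of 0.484 to 2.07, which covers counting error only and not the larger spread between replicates. A difference within that interval was not detectable at this depth. Gli3, which serves mainly as a repressor, had 6, 10 and 12 counts in non-CSC and 9, 12 and 8 in CSC. Its groups overlapped too, and its log2 fold change was 0.30, SE 0.36 (edgeR adjusted p = 0.483). Hhip, which binds and sequesters Hedgehog ligands at the cell surface, had 0, 0 and 0 counts in non-CSC and 0, 1 and 1 in CSC. With so few counts no fold is given for it.

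Gli1 made up 95.3% ± 0.391 of the summed per-length level of the 3 Gli genes in non-CSC and 96.9% ± 0.670 in CSC (SD, n = 3 each). The ratio of Gli1 to Ptch1 counts, both readouts of the pathway, was 0.0813, 0.0782 and 0.0667 in non-CSC against 0.152, 0.132 and 0.157 in CSC. The mean ratio was 1.95-fold higher in CSC. As Gli1 was higher and Ptch1 lower in every CSC library, the ratio had to separate the groups and is a description, not a further test. Of the 3 readouts, Gli1 rose, Ptch1 was slightly lower and Hhip was hardly detected.

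**Figure D2:**
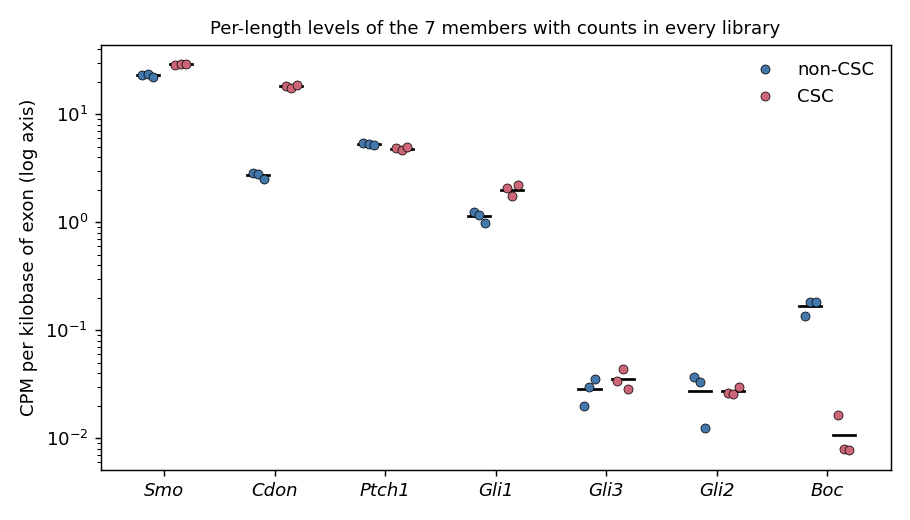
CPM per kilobase of exon on a log axis for the 7 members with counts in every library, ordered by their mean in CSC; points are libraries and black lines group means, and Gas1 and Hhip, with a count of 0 in at least 1 library, are left out. Cdon moves from 2.73 in non-CSC to 18.3 in CSC, past Ptch1 at 5.34 and 4.83, while Smo stays the highest in both groups at 23.1 and 29.0.

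The order of the members by per-length level changed in 2 places. In non-CSC the order was Smo at 23.1, Ptch1 at 5.34, Cdon at 2.73, Gli1 at 1.15, Boc at 0.167, Gli3 at 0.0285 and Gli2 at 0.0277 CPM per kilobase. In CSC it was Smo at 29.0, Cdon at 18.3, Ptch1 at 4.83, Gli1 at 2.02, Gli3 at 0.0357, Gli2 at 0.0274 and Boc at 0.0107 CPM per kilobase. Cdon passed Ptch1, and Boc fell below Gli3 and Gli2. The ranges of Gli3 and Gli2 overlapped in both groups, as did those of Gas1 and Hhip, while every other pair of neighbours in the order was separated in its 3 libraries. For Boc and Hhip in CSC, with 2, 1 and 1 counts against 0, 1 and 1, the counts are too few to tell the levels apart.

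Of the 9 members, 6 were tested and 5 of these were called, 3 higher and 2 lower in CSC, beside 66.5% of all genes called (33.4% higher and 33.1% lower). The CPM ranges of the groups did not overlap for 5 of the 6, beside 69.3% of all genes tested. Since Boc entered the test only through the group where it was high, nothing is read from these counts. By size, Cdon and Boc were far from the median absolute log2 fold change of 0.33 over all genes, Gli1 was above it, Smo was at it and Ptch1 below it. With 15 other combinations of scaling, filter, tool and libraries, Cdon kept a log2 fold change of 2.68 to 2.81 and Gli1 of 0.72 to 0.91. Boc, tested in 14 of them, had -4.29 to -3.59.

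**Figure D3:**
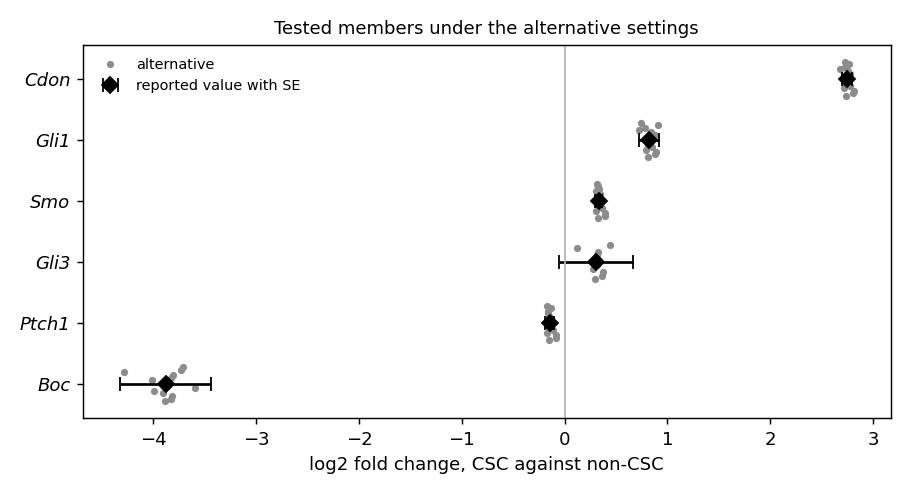
Log2 fold change of the 6 tested members, CSC against non-CSC; black diamonds are the reported values with their SE and grey points the same gene under alternative scaling, filter, tool, block or libraries. Cdon lies far from 0 under every setting, Gli1 between 0.72 and 0.91, and Ptch1 and Smo within 0.4 of 0. Boc also lies far from 0 where it was tested. In the reported fit Boc passed the low-count filter only through the non-CSC libraries, where it was high, so its points are a description.

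Genes that neighbour a member on its chromosome were examined, as a measured value beside each member. The 30 tested genes around Cdon, 15 on each side, had a median log2 fold change of 0.04, with 10 called higher and 9 lower, beside 33.4% and 33.1% of all genes tested. Around Boc the median was 0.18, with 16 called higher and 4 lower. Around Ptch1 it was 0.28, with 15 higher and 5 lower, while Ptch1 itself was at -0.15. Around Smo it was 0.00, with 10 higher and 9 lower, and around Gli1 -0.01, with 12 higher and 11 lower. The neighbours of Cdon and Boc each held 3 genes with a log2 fold change of at least 2, named here after their values were seen. Around Cdon these were Gm33974, next to it, and the adjacent pair Pknox2 and Gm34538, at 3.77 and 3.79. Around Boc they were the adjacent genes Cd200r2, Gm17928 and Cd200r3, at 3.48, 3.74 and 2.84, opposite in sign to Boc. The counts of Pknox2, Gm34538 and these genes near Boc are not given here. Whether they passed the low-count filter through 1 group only was not examined. Changes of at least 2 in size were also found near other members. Around Gli3, which was not called, 2 genes were at 2 or more. Around Gli1, Ddit3 was at -2.56, also named after its value was seen. None of the genes around Ptch1 or Smo changed by as much as 2 in either direction. Whether a change of a member belongs to a change of its region was not tested. Gm33974, a long non-coding RNA gene, ends 101166 bases before Cdon begins in the RefSeq annotation. Gm33974 had 0, 1 and 1 counts in non-CSC and 38, 32 and 22 in CSC. The ratio of its summed counts of 92 and 2 was 55.0, with a 95% interval of 14.8 to 460.7 for counting error only. It passed the low-count filter only through the CSC libraries, so no test is given.

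**Figure D4:**
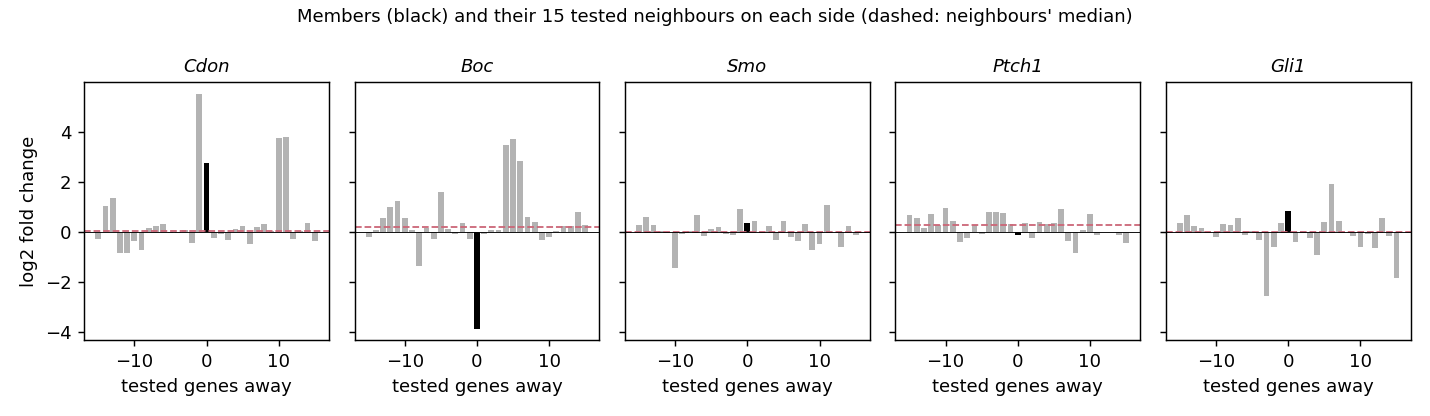
Log2 fold change of each called member (black bar at 0) and of the 15 tested genes on each side (grey bars, in gene order along the chromosome, the x axis counting tested genes away); dashed lines are the medians of the neighbours. The median is 0.04 around Cdon and 0.18 around Boc. Among the neighbours of each, 3 genes are at 2 or more, among them Gm33974 next to Cdon. Around Gli1, Ddit3 is at -2.56. Most genes around Ptch1 lie above 0, with a median of 0.28.

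The genes whose profile over the 6 libraries was most like that of Cdon were Lbp, C3 and Lama3. Likeness was the root mean square difference of log2 CPM after each gene was centred on its mean, over 12707 protein-coding genes tested, and was 0.0695, 0.0712 and 0.0750. Lbp, the lipopolysaccharide-binding protein gene, went from 63.9 ± 3.16 to 453 ± 7.01 CPM (SD, n = 3 each). C3, the central complement component, went from 40.6 ± 0.355 to 281 ± 3.48 CPM, and Lama3, a laminin chain gene, from 2.36 ± 0.337 to 16.5 ± 1.24 CPM. For Ptch1 the closest were Kmt5b, Fnip2 and Klf16, at 0.00983, 0.0114 and 0.0115. With 2 groups of libraries, such likeness reflects mostly the size of the difference between the groups.

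Among genes that make and release the ligands, Indian hedgehog (Ihh) was higher in CSC, Desert hedgehog (Dhh) was not called and Sonic hedgehog (Shh) was not detected. Ihh rose from 0.297 ± 0.0193 to 4.01 ± 0.235 CPM (SD, n = 3 each; 30 counts in all in non-CSC and 340 in CSC), and its fitted log2 fold change was 3.74, SE 0.18. Ihh passed the low-count filter only through the CSC libraries, the group where it was high, so no p is given, as for Boc. Dhh, the ligand gene with the highest count in both groups, was at 14.8 ± 0.171 and 15.4 ± 0.0296 CPM (log2 fold change 0.06, edgeR adjusted p = 0.395). Shh had 0 counts in all libraries. Scube3, of a family of secreted proteins that help to release lipid-modified Hedgehog, rose by 1.67 on the log2 scale. The acyltransferase gene Hhat was at 0.10 and the transporter gene Disp1 at 0.21 (edgeR adjusted p = 0.226 and 0.122), and neither passed. Of the 9 genes of this list 5 were tested, 2 rose and none fell, beside 33.4% and 33.1% of all genes tested. These 2 are Scube3 and Ihh, and the limit given above for Ihh holds for the count too. The median was 0.21 beside 0.01 over all genes, but with so few genes it rested on single libraries. It was 0.075 without CSC replicate 3 and 0.62 to 0.96 without CSC replicate 1 or any 1 non-CSC library, where the filter let in a further gene. The number higher was 2 to 4 across the scalings tried.

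Among other genes of ligand reception, 10 of 16 were tested. Of these 3 rose and 7 fell (33.4% and 33.1% of all genes tested did), and the median was -0.33. The glypican genes, whose products bind Hedgehog proteins at the cell surface, moved apart. Gpc3, known as an inhibitor of the pathway, went from 24.3 ± 0.533 to 5.06 ± 0.346 CPM (SD, n = 3 each), or -2.26 as a log2 fold change. Gpc4 went from 39.6 ± 1.79 to 92.7 ± 1.82 CPM, a log2 fold change of 1.23. Grk2, a kinase that phosphorylates SMO, fell by 0.84, and the beta-arrestin gene Arrb1 rose by 0.73 on the log2 scale. Evc and Evc2, which carry the SMO signal within the cilium, had 0 counts in all libraries.

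Among regulators of Gli proteins, 22 of 23 were tested. Of these 4 rose and 13 fell, beside the same 33.4% and 33.1% of all genes, and the median was -0.19. Ulk3, a kinase of Gli proteins, fell by 0.91, Prkacb, a catalytic subunit gene of protein kinase A, by 0.69, and Tulp3, an adaptor for ciliary trafficking, by 0.69 on the log2 scale. Gpr161, a ciliary receptor that restrains the pathway, rose by 1.53, from 0.883 ± 0.412 to 2.57 ± 0.591 CPM (SD, n = 3 each; edgeR adjusted p = 0.000237). The largest edgeR adjusted p among the other genes of the reception and regulator lists named with a change was 9.77e-11, that of Ulk3.

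Other genes described as GLI targets did not share 1 direction. Of 26 entries, 14 were tested. There were 6 that rose and 7 that fell (6 to 7 each across the scalings tried), beside 33.4% and 33.1% of all genes. The median was 0.12, and -0.0095 without CSC replicate 1, 0.072 without non-CSC replicate 3, 0.18 with plain library sizes or 0.56 with the 21 entries that had any count. Mycn, a proto-oncogene, went from 0.992 ± 0.132 to 5.07 ± 0.491 CPM (SD, n = 3 each), or 2.35 as a log2 fold change. The follistatin gene Fst rose by 1.43 and the cyclin D1 gene Ccnd1 by 1.10, while the transcription factor gene Sox9 fell by 1.20. Each of these genes has regulators other than GLI proteins. The other 12 entries were too low to test.

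Primary cilium genes were mostly detected, and 42 of 46 entries were tested. There were 11 that rose and 22 that fell (11 to 14 and 21 to 22 across the scalings tried), beside 33.4% and 33.1% of all genes, and the median was -0.19. Ift81, a subunit of the intraflagellar transport machinery, fell by 1.42 on the log2 scale, and the transition zone genes Tctn1 and Tctn3 fell by 1.20 and 1.18. Ift140, another transport subunit, rose by 1.27. Ift57 and Dync2li1, also transport genes, had 0 counts in all 6 libraries. Over the 5 lists the median log2 fold changes ran from -0.33 to 0.21, and a list's count was not tested against other genes.

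**Figure D5:**
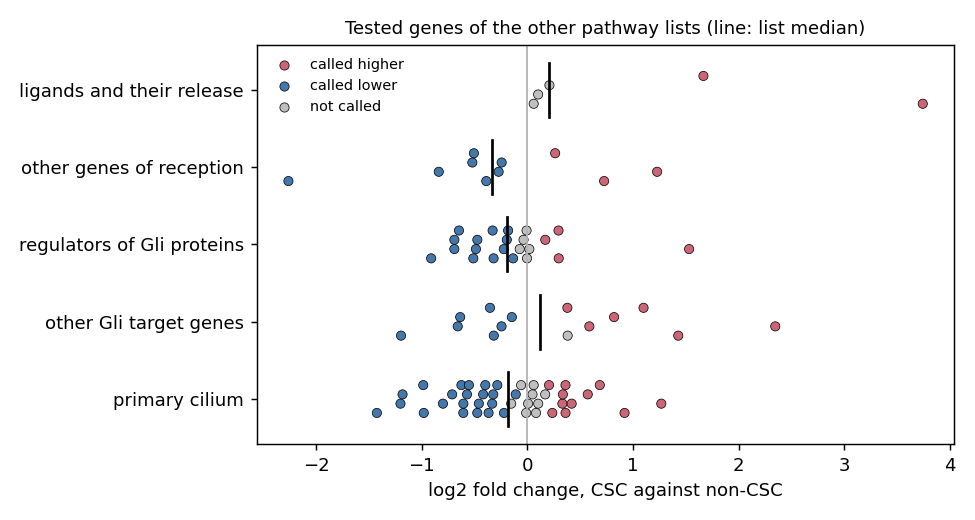
Log2 fold change, CSC against non-CSC, (x axis) of every tested gene in the 5 lists of other pathway genes; points are genes (red called higher, blue called lower, grey not called), black lines are list medians and the height of a point within its row has no meaning. Ihh at 3.74 and Gpc3 at -2.26 are the points farthest above and below 0. Ihh passed the low-count filter only through the CSC libraries. The reception, regulator and cilium lists have medians below 0.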

How the data were processed

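Gene expression was measured by RNA-seq in 6 libraries of EO771 cells, prepared with a NEBNext kit (input 1.3 ug total RNA) per the labels. The authors deposited raw read counts per gene symbol, without normalization, with GRCm38 as the build per the submitters' processing notes. The sources used here do not give the aligner, counter, annotation or strand setting. Columns were matched to samples by group word and replicate number.

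Counts were filtered with filterByExpr (minimum count 10), scaled with TMM and tested with edgeR 4.0.16 (quasi-likelihood, robust, no covariate, R 4.3.3), adjusted over 17630 genes, threshold 0.05. The SE is the log2 fold change divided by the square root of F. Replicates differed by more than sampling noise (chi-square per degree of freedom 3.21 to 7.30 over genes with at least 20 counts) and were kept separate. Exon lengths, coordinates and overlaps came from GENCODE M21, in which all 9 members were found, and gene order and promoters from RefSeq GRCm38.p6. Intervals of summed count ratios are exact conditional binomial. Log2 CPM for likeness used a prior count of 2.

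Alternatives comprised scaling by RLE, by upper quartile or by plain library size, 2 other filters, DESeq2 1.42.0, limma-voom (limma 3.58.1), the robust setting off, a replicate block and leaving out each library. For the shares the longest transcript, and for the neighbours 5 or 30 genes on each side, were tried. The fit was also run on simulated counts in which few genes differed, equally many up and down. In these data most genes were called, so that run cannot check the scaling used here. All members were named. From each list up to 4 genes were named, those with the largest changes among called genes whose mean was at least 1 CPM, and all tested genes of lists with 5 or fewer tested. For the members with the largest rise and fall at that mean, the 3 most alike genes were named. The members and lists were chosen with earlier results of these data known. Values of 1 list gene are not reported here.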

Additional observations from a re-analysis of the deposited data

How the results depend on the processing

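Cdon, Smo and Gli1 kept their direction and call, and Gli3 its direction without a call, under each alternative in which they were tested. Boc did so too, but in the reported fit it passed the filter only through the group where it was high. Ptch1 lost its call with upper-quartile scaling (log2 fold change -0.088) and with plain library sizes (-0.080). The members called lower were then 1, and were also 1 when only genes with a mean of at least 50 counts were tested, which removes Boc and Gli3. The filter also left Gli3 out when any 1 of the non-CSC libraries was dropped. Over all genes, 11732 were called, and 9859 to 12763 under the alternatives, 11680 of them with a replicate block. The split was 5894 higher and 5838 lower, 6700 and 5066 with upper-quartile scaling, and 6781 and 4970 with plain library sizes. The block changed no member's call (Ptch1 -0.15, Gli3 0.31). Same-numbered libraries did not deviate together (r across genes -0.026 to -0.011), which does not exclude that the numbers pair the samples. With the longest transcript as length, the share of Gli1 was 95.8% in non-CSC and that of Gli2 1.12% in CSC. With 5 genes on each side the medians of the neighbours were -0.048 (Cdon), 0.090 (Boc), 0.35 (Ptch1), 0.14 (Smo) and -0.30 (Gli1), and with 30 they were 0.12 (Boc), 0.16 (Ptch1), 0.044 (Smo) and -0.065 (Gli1). Hhat passed with plain library sizes (0.17), and Disp1 with those (0.27) and with upper-quartile scaling (0.27), while Kmt5b and Fnip2 lost their calls with plain library sizes and Kmt5b also with upper-quartile scaling. The cause was not tested. Over the alternatives the list medians were -0.37 to -0.25 for reception, -0.21 to -0.12 for the regulators and -0.23 to -0.12 for the cilium. Depth limits Boc, Gli2, Gli3 and Hhip, which had at most 29 counts in any library.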
